A study of Mus musculus with 6 samples.

Results

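Notch signalling passes between touching cells. A ligand on one cell, here Jag1 or Dll1, meets a receptor on its neighbour, here Notch1, Notch2 or Notch3. The cleaved receptor acts in the nucleus with Rbpj to switch on repressor genes such as Hes1, Hes5 and Hey1. Dll3, also of the ligand family, is known for acting inside its own cell and not on neighbours. Hes6, a further member of the Hes family, is known for acting against Hes1 and for promoting neuronal differentiation. In the main olfactory epithelium (MOE) of the mouse, the pathway is known for its part in the choice between the neuronal and the sustentacular fate and in keeping horizontal basal cells at rest. The 10 genes named here were picked by symbol. All 10 are among the 24564 genes that each library lists, and their levels were followed through 6 cell classes of the epithelium in all 6 libraries.

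The data are single-cell RNA counts (unique molecular identifiers, UMIs) from whole MOE. Of the 6 libraries, 2 came from swap mice, in which HP1β (Cbx1) is replaced by HP1α (Cbx5) after Cre recombination, and 2 from controls. Both swap libraries carry the genotype Cbx*/* with Cre. The genotype label of control 1 names WT with Cre, and that of control 2 names Cbx*/* with no Cre, so the controls differ from each other in genotype. The Cre driver is described by the study as specific to neuronal lineages. The remaining libraries are 1 gg8tTA library (genotype gg8-tTA, the driver alone) and 1 tetOP2 library (gg8-tTA; tetOP2iresGFP), in which the driver forces expression of the olfactory receptor P2. The labels state no age. The libraries held 2563 to 7703 barcodes, and 2563 to 5091 cells per library passed the filters, with a median of 9991 to 11543 UMIs. The control 2 library lost the most barcodes, with 57.5% kept, and pairs of libraries shared at most 13 barcodes. Levels are given as CPM, the UMIs of a gene scaled to a common library total. Xist was at 1274 to 1468 CPM in the swap 1, gg8tTA and tetOP2 libraries and at most at 0.584 CPM in the other 3. Ddx3y, likewise sex-linked, was at 0 CPM in the swap 1, gg8tTA and tetOP2 libraries and at 44.9 to 55.9 CPM in the others. Swap 1 thus differed in these genes from swap 2 and both controls, and the part of sex in the swap comparison was not tested. Cbx1 was at 47.2 to 221 CPM in the control libraries and at 0.568 to 6.53 CPM in the swap libraries over the 6 classes, sustentacular and horizontal basal cells included.

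Cells were gated by marker genes, none of them among the 10. The gates held 1179 horizontal basal-like (HBC-like) cells, with Krt5 and Trp63 among their markers. Of these, 387 had a Trp63 UMI and no Krt15 UMI, and 792 did not. As means over libraries, Reg3g was at 398 CPM in the 387 and 4777 CPM in the 792, and Hey1 at 210 and 137 CPM. HBC-like values below cover both groups unless stated otherwise. A further 325 cells were globose basal-like (GBC-like), with Kit and Sox2 among their markers. The 1006 immediate neuronal precursor-like (INP-like) cells had Neurog1 and Neurod1 among their markers, with a UMI of both in 594 cells and of neither in 102. The gates also held 3943 immature olfactory sensory neuron-like (iOSN-like) cells, with Gap43 and Gng8 as markers, and 4716 mature ones (mOSN-like), with Omp. There were 3408 sustentacular-like (Sus-like) cells, with Cyp2g1, and 14577 of 24830 cells were gated in all. Markers of a class's own list were found in its cells. Krt5 had a UMI in 98.2% of HBC-like, Kit in 88.9% of GBC-like and Neurog1 in 77.7% of INP-like cells. Gap43 had one in 96.9% of iOSN-like, Omp in 99.9% of mOSN-like and Cyp2g1 in 97.4% of Sus-like cells. Most list markers had their highest pooled CPM in their own class, with exceptions. Sox2 was at 322 CPM in GBC-like and 521 CPM in Sus-like cells. Gadd45g, of the INP-like list, was at 123 CPM in INP-like and 149 CPM in GBC-like cells. Of the iOSN-like list, Tubb3 was at 1562 CPM in iOSN-like and 1690 CPM in INP-like cells. Stmn4 was at 328 CPM in iOSN-like and 510 CPM in mOSN-like cells. Clusters built without the 10 genes gave the same name to 65.9% of the gated INP-like cells, 81.2% of the GBC-like cells and 84.5% to 95.4% of the cells of the other classes. The GBC-like class is small, with 34 to 72 cells per library.

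Of the Hes and Hey genes, Hes5 and Hes6 had their highest class mean of summed counts in the precursors, INP-like cells for Hes5 and GBC-like cells for Hes6, so the sequence just before their start sites is shown. RefSeq (GRCm38.p6, the build called mm10 in the processing notes) gave start sites for 8 of the 10 genes. Hes1 and Hey1 had no entry, so their windows could not be read. The lines below hold the 250 bases before the start site, 5′ to 3′ on the gene's strand, for Hes5 at chr4:154960673-154960922 on the plus strand and for Hes6 at chr1:91414039-91414288 on the minus strand. Capitals mark the letters TGGGAA on either strand (TGGGAA or TTCCCA), which are the core of the motif that Rbpj is known to bind, and CANNTG, the E-box of basic helix-loop-helix factors, which reads the same on both strands. No 2 of the marked motifs overlap.
Hes5: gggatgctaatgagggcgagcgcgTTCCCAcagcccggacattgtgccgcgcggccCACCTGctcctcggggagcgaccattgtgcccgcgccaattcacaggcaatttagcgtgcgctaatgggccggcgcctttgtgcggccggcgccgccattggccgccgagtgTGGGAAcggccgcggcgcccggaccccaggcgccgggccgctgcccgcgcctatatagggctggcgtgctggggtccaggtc
Hes6: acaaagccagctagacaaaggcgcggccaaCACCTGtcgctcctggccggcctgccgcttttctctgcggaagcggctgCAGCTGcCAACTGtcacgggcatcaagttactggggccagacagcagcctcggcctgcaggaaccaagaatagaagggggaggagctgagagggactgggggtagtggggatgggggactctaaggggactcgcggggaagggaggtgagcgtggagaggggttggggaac
The Hes5 stretch holds TGGGAA letters at 2 places, first bases 226 and 82 before the start site, and 1 CANNTG. The Hes6 stretch holds 3 CANNTG, at 220, 171 and 164 bases before the start site, and no TGGGAA. RefSeq also has a second Hes6 start site, inside the gene at position 91413222, whose window holds 1 CANNTG and no TGGGAA, and the window shown is the one at the gene's 5′ end. Of 32851 RefSeq start sites, 2.77% had TGGGAA at 2 or more places in the same window and 12.2% had CANNTG at 3 or more. Of the other matched genes, the windows of Notch1, Notch2, Notch3, Jag1, Dll1 and Dll3 held no TGGGAA. A match is a description of the letters and was not tested as a binding site.

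The receptors were spread over basal, precursor and Sus-like cells and were near 0 in neurons. Notch1 (chr2:26457903-26516663) was highest in INP-like cells, at 106 ± 37.8 CPM (SD, n = 6 libraries), and in HBC-like cells, at 94.0 ± 27.2 CPM, and the ranges of these classes overlapped. It was at 37.8 CPM in GBC-like and 33.8 CPM in Sus-like cells, and at 2.36 and 1.24 CPM in iOSN-like and mOSN-like cells. Notch2 (chr3:98013527-98150361) was highest in Sus-like cells, with 55.0 to 102 CPM over the libraries, every one above the highest HBC-like value of 50.8 CPM. Notch3 (chr17:32120820-32166852) was a Sus-like transcript among the 6 classes, with 38.6 to 72.1 CPM against at most 17.6 CPM in any library of the other 5 classes. By class mean, Notch1 was thus led by INP-like and HBC-like cells, and Notch2 and Notch3 by Sus-like cells. The divide was not clean. The GBC-like and Sus-like ranges of Notch1 overlapped, and Notch2 was next highest in HBC-like cells, at 38.7 CPM.

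**Figure D1:**
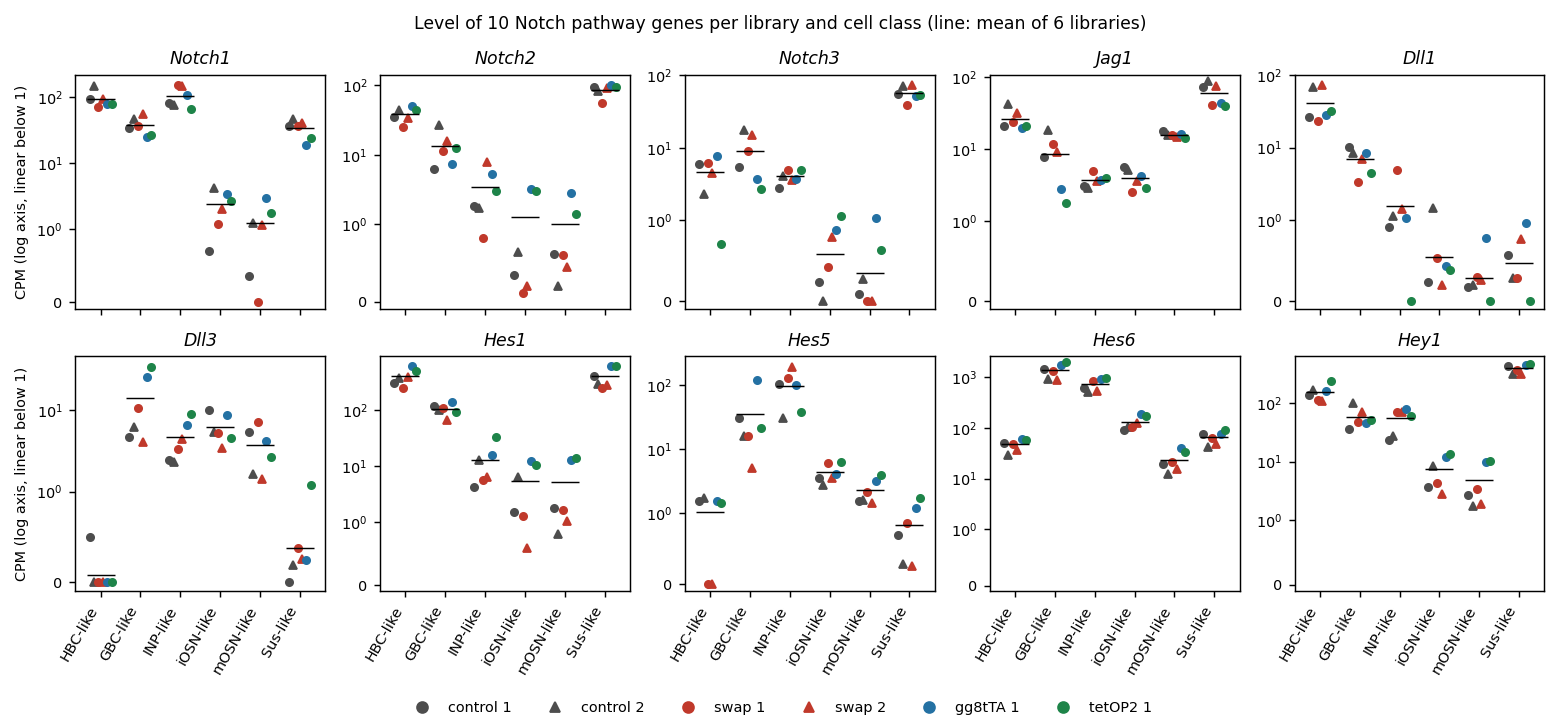
Level of each of the 10 genes (CPM, log axis that is linear below 1) in the 6 gated classes, with 1 point per library and a line at the mean of 6 libraries. Notch2, Notch3, Jag1, Hes1 and Hey1 have their highest mean in Sus-like cells, Dll1 in HBC-like cells, Hes6 and Dll3 in GBC-like cells, and Notch1 and Hes5 in INP-like cells.

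Among the 6 classes, each ligand had its own leading class by the mean over the 6 libraries. Jag1 (chr2:137081456-137116644) was at 60.4 ± 21.5 CPM in Sus-like and 26.5 ± 8.87 CPM in HBC-like cells, with overlapping ranges and the Sus-like value higher in 6 of 6 libraries. Dll1 (chr17:15367354-15376872) was highest in HBC-like cells among the 6 classes, at 41.6 ± 21.8 CPM against at most 10.2 CPM in any GBC-like library and at most 4.96 CPM in any library of the other 4 classes. Outside the 6 classes it was at a like level, 36.4 ± 8.50 CPM, in one of the microvillar cell gates and at 36.9 ± 17.5 CPM in that of endothelial cells, where Jag1 was at 89.6 ± 50.7 CPM. The replicate 2 libraries had the higher HBC-like levels in both genotypes. Dll1 was 26.7 CPM in control 1 and 23.5 CPM in swap 1, against 67.4 CPM in control 2 and 71.6 CPM in swap 2. The gg8tTA and tetOP2 libraries, at 28.2 and 31.9 CPM, lay with the lower pair. Among HBC-like cells with a Trp63 UMI and no Krt15 UMI, Dll1 kept that order in the 4 libraries, at 40.5 and 24.4 CPM for replicates 1 and 61.6 and 65.9 CPM for replicates 2. What the replicate numbers share is not in the labels, and its part in Dll1 was not tested. Dll3 (chr7:28293553-28302238), a ligand known for acting inside its own cell and not on neighbours, had 101 UMIs in 325 GBC-like cells and 1 UMI in 1179 HBC-like cells. Pooled, this is a ratio of 181, with an exact 95% interval of 31.8 to 7219 that covers counting error only. Dll3 differed between libraries within the GBC-like class, at 25.3 and 33.5 CPM in gg8tTA and tetOP2 against 4.01 to 10.7 CPM in the swap and control libraries. Its mean over the 6 libraries was 14.0 CPM in GBC-like and 6.21 CPM in iOSN-like cells, with overlapping ranges. The control mean was lower in GBC-like than in iOSN-like cells, at 5.40 and 7.68 CPM. The swap mean was higher, at 7.35 and 4.27 CPM.

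Among the repressors, Hes1 and Hey1 went together and Hes5 and Hes6 lay elsewhere. Hes1 (chr16:30064384-30067796) was at 404 ± 165 CPM in Sus-like and 399 ± 130 CPM in HBC-like cells, which did not differ beyond their spread, then at 103 CPM in GBC-like and 12.9 CPM in INP-like cells. Each of these last 2 gaps separated the ranges of the classes in all libraries. The gg8tTA and tetOP2 libraries gave the highest Hes1 values in both leading classes, 614 and 596 CPM in Sus-like cells against 246 to 406 CPM in the swap and control libraries. Hey1 (chr3:8663359-8667256) was at 398 ± 69.4 CPM in Sus-like, 156 ± 46.4 CPM in HBC-like and 59.0 ± 24.0 CPM in GBC-like cells, with no overlap between neighbours in that order. Its INP-like mean of 55.4 CPM overlapped the GBC-like range. Cyp2g1, the Sus-like marker, was at 457 CPM in pooled GBC-like cells, with a UMI in 59.4% of them. It was at 150 CPM in INP-like and 10946 CPM in Sus-like cells. Whether RNA of Sus-like cells makes up part of the GBC-like levels of Hes1, Hey1, Notch2, Notch3 and Jag1, and of the steps below that use them, was not tested.

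Hes6 (chr1:91411483-91414038) was at 1381 ± 432 CPM in GBC-like and 726 ± 195 CPM in INP-like cells, higher in GBC-like cells in 6 of 6 libraries although the ranges overlapped, and fell to 130 CPM in iOSN-like and 23.4 CPM in mOSN-like cells. Hes5 (chr4:154960923-154962371) was at 97.5 ± 58.5 CPM in INP-like and 34.7 ± 42.5 CPM in GBC-like cells, higher in INP-like cells in 5 of 6 libraries, and at most at 6.30 CPM in any library of the other 4 classes. Outside the 6 classes, Hes5 was higher still in the kept-out gate of olfactory ensheathing glia, at 424 CPM, where Notch1 was at 146 CPM. Notch3 was likewise higher outside, at 205 CPM in the pericyte gate, which held 61 cells over the 6 libraries.

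Shares of cells with a UMI were compared after every cell was thinned to 3000 UMIs, which left out the shallower cells (29 of 1179 HBC-like, 12 of 325 GBC-like, 77 of 1006 INP-like, 179 of 3943 iOSN-like, 140 of 4716 mOSN-like and 343 of 3408 Sus-like cells). Erythroid cells, which should lack most of these transcripts, served as the level that free RNA and miscalled cells give, with 647 cells at the same depth. Before thinning, the median of all 1005 erythroid cells, those too shallow to be thinned included, was 4496 UMIs. That of all HBC-like cells was 9864 and that of all GBC-like cells 20868. Hes6 was found in 81.8% of GBC-like, 70.7% of INP-like, 25.4% of iOSN-like and 6.21% of mOSN-like cells, against 4.17% of erythroid cells. Hey1 was found in 64.4% of Sus-like cells and Hes1 in 58.1% of HBC-like cells, against 2.32% and 3.25% of erythroid cells. Notch1 was found in 22.4% of HBC-like and 17.0% of INP-like cells, against 0.773% of erythroid cells, so that by share the HBC-like class came first. Hes5 was found in 6.07% of GBC-like and 5.17% of INP-like cells, also against its order by CPM. The order of Hes5 between these classes therefore holds for the summed UMIs and not for the share of cells that carry it. In mOSN-like cells, Hes1 at 1.20%, Hey1 at 1.14%, Hes5 at 0.699%, Notch1 at 0.262% and Notch2 at 0.219% were all at or below the erythroid shares. These shares do not tell them apart from background, and whether mature neurons express them was not tested. Dll3 was found in 0 of 647 erythroid cells, which allows a share of up to 0.464%, and in 1.65% of iOSN-like cells.

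How the 10 genes change from one stage of the neuronal lineage to the next was tested in 1 fit over the class sums of all 6 libraries with the library as a block (edgeR quasi-likelihood test). A gene was called at a Benjamini-Hochberg adjusted p under 0.05 over 13638 genes and a log2 fold change over 0.58 in size. From HBC-like to GBC-like cells, 3 of the 10 were called higher and 6 lower, where 45.9% of all genes were called, 22.0% higher and 23.9% lower. The median log2 fold change was -1.56 over the 10 and 0.01 over all genes. Hes6 rose by 4.62 ± 0.14 (log2 fold change ± SE, edgeR adjusted p = 5.34e-21) and Hes5 by 4.98 ± 0.74. Dll3 had a fitted difference of 6.85 ± 0.84, which rests on the single HBC-like UMI given above. The 6 called lower were Dll1, by 2.76, Hes1 by 2.10, Jag1 by 1.79, Notch2 by 1.71, Hey1 by 1.58 and Notch1 by 1.54 on the log2 scale. Notch3 was at 0.60 ± 0.45 and was not called.

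From GBC-like to INP-like cells, 2 of the 10 were called higher and 7 lower, against 43.5% of all genes, 17.1% higher and 26.3% lower. The receptor Notch1 rose by 1.36 ± 0.28 (edgeR adjusted p = 0.00014) and the summed counts of Hes5 by 1.53 ± 0.41 (edgeR adjusted p = 0.00239). For Hes5 the share of thinned cells with a UMI did not move that way, at 6.07% of GBC-like and 5.17% of INP-like cells, and 1 cell held 26.3% to 90.4% of a library's INP-like UMIs. Hes1 fell by 3.40, Dll1 by 2.43, Notch2 by 2.22, Dll3 by 1.61, Jag1 by 1.41, Notch3 by 1.29 and Hes6 by 1.04. The median over the 10 was -1.35, against -0.15 over all genes. The call on Dll3 was lost without the gg8tTA library (log2 fold change -1.29, edgeR adjusted p = 0.0524). The call on Notch3 was lost without any 1 of the 4 swap and control libraries, at -1.29 to -0.87. Hey1, at -0.30 ± 0.32, was not called.

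From INP-like to iOSN-like cells, 7 of the 10 were called lower and none higher, where 43.2% of all genes were called, 18.4% lower and 24.8% higher. Notch1 fell by 5.55 ± 0.33 (edgeR adjusted p = 2.71e-14), Hes5 by 4.43 ± 0.44, Hey1 by 2.93 ± 0.34, Notch3 by 2.73 ± 0.58 and Hes6 by 2.47 ± 0.12. Notch2 and Hes1 fell by 1.44 and 1.35, on 37 and 146 INP-like UMIs over the 6 libraries. Of the 146 for Hes1, tetOP2 held 65. Without swap 1, swap 2 or control 1 the call on Notch2 was lost, at -1.39 to -0.93, and without swap 1 or tetOP2 the call on Hes1 was lost, at -1.24 and -1.18. Jag1, Dll1 and Dll3, the ligands, had values of 0.17, -1.35 and 0.57 and were not called.

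From iOSN-like to mOSN-like cells, 1 of the 10 was called higher and 1 lower, with 37.7% of all genes called, 19.4% higher and 18.3% lower. Hes6 fell by a further 2.35 ± 0.12 (edgeR adjusted p = 1.28e-15). Jag1 rose by 2.17 ± 0.20 (edgeR adjusted p = 2.16e-10), from 2.58 to 5.72 CPM in iOSN-like cells to 14.2 to 18.0 CPM in mOSN-like cells, higher in 6 of 6 libraries with no overlap. Jag1 was found in 4.17% of thinned mOSN-like cells, against 1.24% of erythroid cells and 1.22% of iOSN-like cells. Sus-like cells also hold Jag1, and other transcripts of theirs are given beside it. Notch2 was at 1.02 CPM in mOSN-like and 87.0 CPM in Sus-like cells, and Jag1 at 15.8 CPM and 60.4 CPM. Cyp2g1, the Sus-like marker, was at 12.7 to 20.6 CPM in mOSN-like cells of the swap and control libraries and at 107 and 113 CPM in gg8tTA and tetOP2, while Jag1 was at 14.7 to 18.0 CPM and at 16.2 and 14.2 CPM. Hes1 in mOSN-like cells was at 0.821 to 1.78 CPM in the first 4 libraries and 12.7 and 14.0 CPM in the last 2. Whether RNA of Sus-like cells makes up part of the Jag1 or Hes1 level in mOSN-like cells was not tested.

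Sus-like cells were compared with the mean of the other 5 classes in the same fit. That mean was taken on the log2 scale, where near-0 levels in neurons pull it down. All 10 genes were called, 6 higher and 4 lower, where 50.5% of all genes were called, 26.7% higher and 23.7% lower. Notch3 was higher by 4.83 ± 0.21, Notch2 by 4.32 ± 0.19, Hes1 by 4.03 ± 0.23, Hey1 by 3.92 ± 0.18, Jag1 by 2.75 ± 0.13 and Notch1 by 1.13 ± 0.20 on the log2 scale, with an edgeR adjusted p of 7.34e-06 for Notch1 and smaller ones for the other 5. By CPM, the Sus-like mean of Notch1, 33.8, lay below those of INP-like, HBC-like and GBC-like cells, at 106, 94.0 and 37.8. Its call as higher rests on its low levels in neurons. Dll1, Dll3, Hes5 and Hes6 were lower, at -2.26, -2.76, -3.25 and -1.35. The Dll3 value leans on the HBC-like sums, which hold 1 UMI in all, and its call was lost without control 1, the library with that UMI (log2 fold change -2.06, edgeR adjusted p = 0.997).

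**Figure D2:**
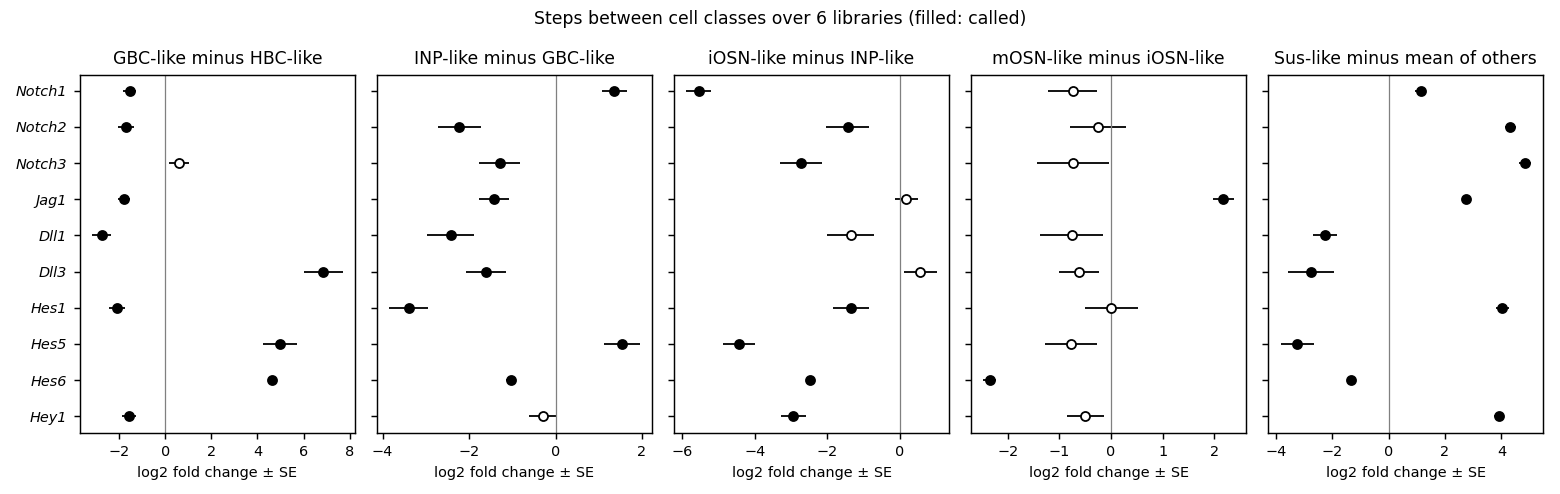
Log2 fold change ± SE of each gene at each step between classes (edgeR, 6 libraries, library as a block), filled where called. Hes6 and Hes5 rise by 4.62 and 4.98 into the GBC-like class, Notch1 falls by 5.55 into the iOSN-like class, and Jag1 rises by 2.17 into the mOSN-like class.

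The other genes of the pathway, 55 in a list of machinery, modifiers and targets with 49 tested, moved at these steps in both directions. Into GBC-like cells 7 were called higher and 19 lower, where 22.0% of all genes were higher and 23.9% lower. Into INP-like cells 14 were higher and 9 lower, against 17.1% and 26.3% of all genes, and into iOSN-like cells 9 and 14, against 24.8% and 18.4%. Into mOSN-like cells 14 were higher and 14 lower, against 19.4% and 18.3%. Mfng and Lfng are glycosyltransferases that modify Notch receptors. Mfng rose from 0.446 CPM in HBC-like to 80.6 CPM in GBC-like and 329 CPM in INP-like cells, called at both steps (log2 fold changes 7.28 ± 0.48 and 1.87 ± 0.23), and then fell by 5.96 to 5.97 CPM in iOSN-like cells. Lfng fell by 6.72 at that last step, from 65.8 to 0.607 CPM. Of the 6 genes of the nuclear complex, 3 were called higher in INP-like than in GBC-like cells and 0 lower. They include Rbpj, which rose by 0.97 ± 0.10, and its coactivator Maml3, which rose by 2.14 ± 0.20. The corepressor Tle1 rose by 1.73 ± 0.13 at the same step. Maml3 then fell by 2.77 and the feedback target Nrarp by 2.81 into iOSN-like cells, and Tle1 by 2.69, Id2 by 3.27, Tle4 by 2.40 and Nrarp by 2.67 into mOSN-like cells, while Kat2b, an acetyltransferase of the complex, rose by 2.15. Psenen, a subunit of the γ-secretase that cleaves the receptors, rose by 0.75 into iOSN-like cells.

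Into GBC-like cells, Dlk2, a relative of the ligands, fell by 6.43, from 168 to 2.48 CPM. Furin, which processes the receptors, fell by 1.76 and the coactivator Maml2 by 3.08 at the same step. Dtx4, a ubiquitin ligase of the pathway, rose by 2.39 there and fell by 2.03 into INP-like cells. In Sus-like cells, 19 of the 49 were called higher and 12 lower than the mean of the other classes, where 26.7% of all genes were higher and 23.7% lower. The γ-secretase genes Aph1c, Psen2 and Aph1a were higher by 3.71, 1.63 and 0.93, Id1 by 3.11 and Kat2b by 1.95. Of the 10 cleavage genes 6 were called higher and 0 lower, against the same 26.7% and 23.7% of all genes. The list also holds Sox9, a marker used to keep Bowman gland cells out, so its value depends on the gate.

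Within the INP-like gate the genes were not evenly spread. Hes5 and Notch1 lay mostly in its proliferating cells. The 330 of 1006 cells with a UMI of Mki67 or Top2a, genes of dividing cells, held 23.0% to 45.3% of the cells of a library and 32.9% to 56.4% of its INP-like UMIs. They held 96.5% of the Hes5 UMIs (90.8% to 99.2% over the libraries) and 78.7% of the Notch1 UMIs (66.2% to 87.0%). Notch1 was at 186 ± 79.8 CPM in these cells and 41.0 ± 11.1 CPM in the others, and Hes5 at 212 ± 135 CPM and 6.79 ± 6.78 CPM. After thinning, Notch1 was found in 35.03% and 9.58% of the cells as the mean over libraries, and Hes5 in 12.8% and 1.77%. Hes6 was less concentrated, at 982 ± 289.5 CPM and 487 ± 72.0 CPM, with 62.8% of its UMIs in the proliferating cells.

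Few cells carried Hes5. Over the libraries 5 to 26 INP-like cells had a UMI of it, and 1 cell held 26.3% to 90.4% of a library's INP-like Hes5 UMIs. In control 2 a single cell held 47 of 52 UMIs, and in control 1 a single cell held 115 of 340. Cells with Hes5 more often had a Notch1 UMI than cells without it in 6 of 6 libraries, by 41.4 ± 15.2 percentage points (SD) after thinning, and more often a Hey1 UMI, by 35.98 ± 13.5 points in 6 of 6. These pairs were chosen after the values were seen and were not tested. Since ensheathing glia also hold Hes5, the summed level of the 5 glia markers is given: it was 19428 to 34826 CPM in glia and 0 to 17.2 CPM in Hes5-positive INP-like cells of 5 libraries, and 416 CPM in those of control 1. Leaving out INP-like cells with more than 2 glia marker UMIs left Hes5 at 105 CPM in control 1, against 104 CPM before.

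**Figure D3:**
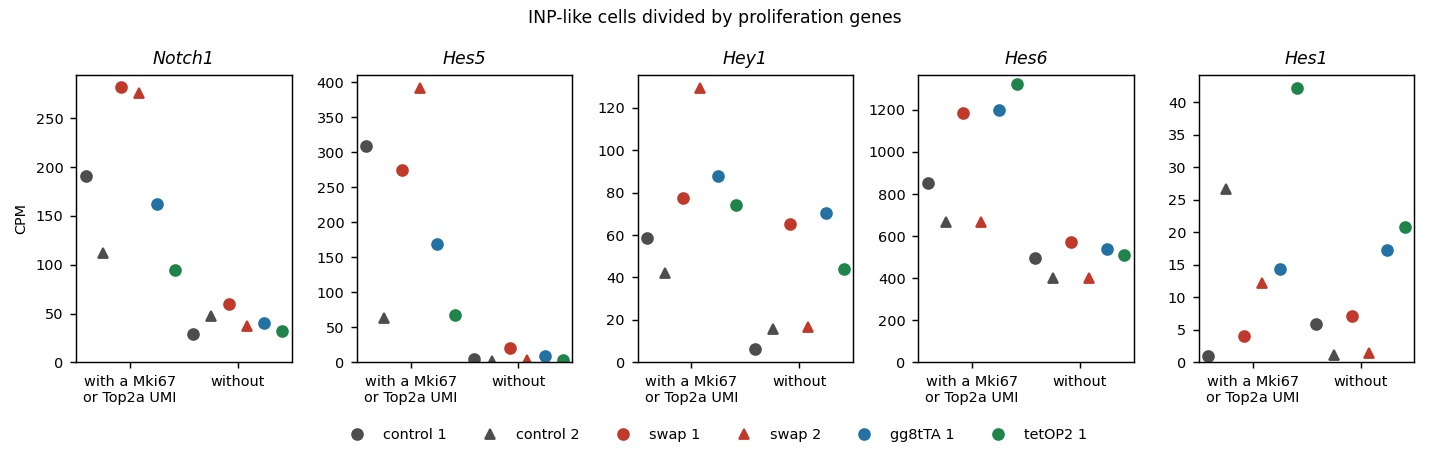
CPM of 5 genes per library in INP-like cells with a UMI of Mki67 or Top2a and in those without, on linear axes from 0. Hes5 lies at 63.5 to 391.7 CPM in the first group and at 2.12 to 19.8 CPM in the second, and every library has more Notch1 and Hes6 in the first.

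Hes6 and Dll3, both transcripts of neuronal commitment, were tested for presence in the same cells. In thinned INP-like cells, Dll3-positive cells had Hes6 more often than Dll3-negative cells by 24.3 ± 17.2 percentage points (SD) in the 5 libraries that had any, higher in 4 of 5 (exact two-sided sign-flip permutation test, p = 0.125, where 5 libraries cannot go below 0.0625). Only 1 to 4 Dll3-positive cells per library stood behind it. In thinned GBC-like cells the difference was 10.5 ± 14.0 points in 3 libraries (exact permutation p = 0.50, smallest possible 0.25). Without thinning, all 6 libraries gave a value, 12.4 ± 6.60 points in INP-like cells, higher in 6 of 6 (exact permutation p = 0.0312, the smallest that 6 libraries can give). Unthinned shares depend on depth, and Hes6 was found in 81.1% to 95.7% of Dll3-negative INP-like cells.

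Whether the swap changed the pathway was asked in each class with 2 swap against 2 control libraries (edgeR, the same thresholds). Of the 43 tests on the 10 genes, 0 were called, counting 8 genes tested in HBC-like, 9 in GBC-like, 5 in INP-like and 7 in each other class. Over all genes, 0.0197% were called in HBC-like, 0.0323% in GBC-like, 0.0211% in INP-like and 0.0414% in iOSN-like cells, and 0.00% in mOSN-like and in Sus-like cells. At an unadjusted p under 0.05, 3 of the 43 passed, all among the 5 members tested in INP-like cells, where 184 of all 9465 genes passed, and DESeq2 called none of the 10 either. Cbx1, the targeted gene, had log2 fold changes of -6.47 to -5.05 and was called in HBC-like, GBC-like, INP-like and iOSN-like cells, with edgeR adjusted p = 0.0743 in mOSN-like and 0.564 in Sus-like cells.

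**Figure D4:**
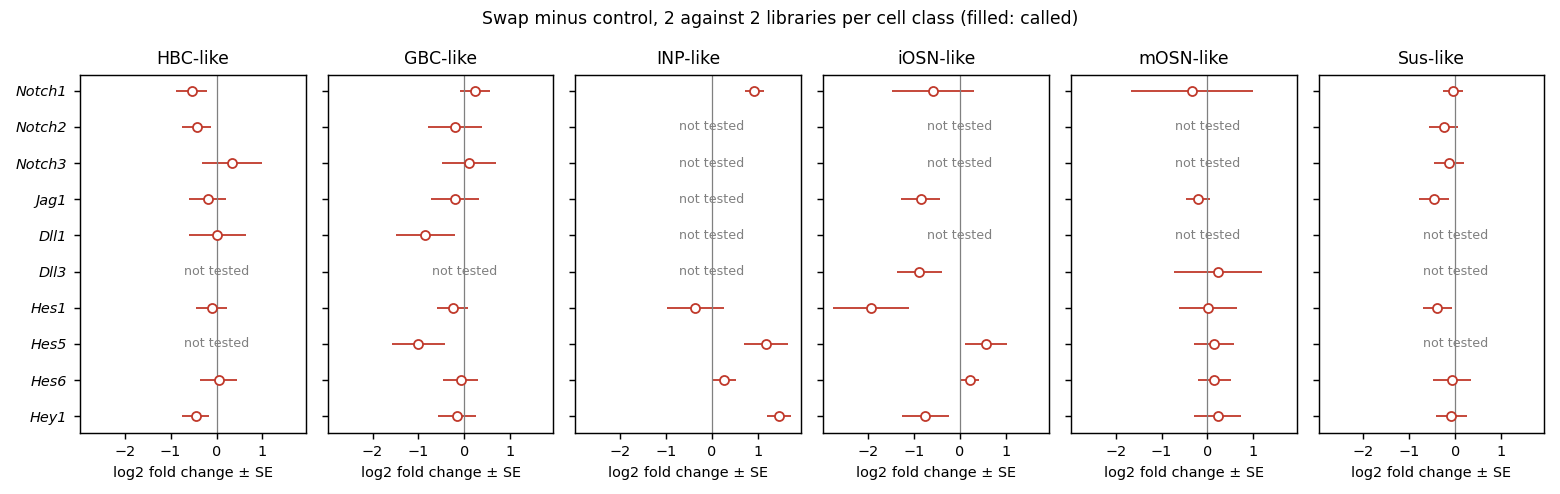
Log2 fold change ± SE of swap minus control for each gene tested in each class (edgeR, 2 against 2 libraries); an open point was not called, and no gene was called. In INP-like cells, Notch1, Hes5 and Hey1 lie at 0.92, 1.17 and 1.46, and in Sus-like cells all 7 tested genes lie between -0.46 and -0.05. Leaving out a single library turned the direction of Notch2, Hes1 and Hey1 in Sus-like cells.

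In INP-like cells the 3 genes with an unadjusted p under 0.05 all had higher values in swap libraries. Hey1 was at 23.6 and 27.7 CPM in control 1 and 2 and at 70.2 and 70.4 CPM in swap 1 and 2. The swap values did not overlap the controls, but gg8tTA and tetOP2, at 80.3 and 60.4 CPM, lay with the swap libraries. Cyp2g1, which marks the Hey1-rich Sus-like cells, was at 45.1 and 44.5 CPM in control and 21.5 and 174 CPM in swap INP-like cells. Pooled over the INP-like cells of all 6 libraries, gg8tTA and tetOP2 included, it was at 150 CPM. Whether RNA of Sus-like cells makes up part of the Hey1 level in INP-like cells was not tested. The log2 fold change of Hey1 was 1.46 ± 0.26 (unadjusted p = 0.00038, edgeR adjusted p = 0.45). Notch1 was at 82.5 and 76.8 CPM in control and 152 and 151 CPM in swap libraries, and here gg8tTA and tetOP2, at 109 and 65.9 CPM, lay below the swap libraries. Its log2 fold change was 0.92 ± 0.21 (unadjusted p = 0.00199, edgeR adjusted p = 1.00). Hes5 was at 104 and 30.04 CPM in control and 126 and 188 CPM in swap libraries, with 99.1 and 37.9 CPM in gg8tTA and tetOP2 and a log2 fold change of 1.17 ± 0.49 (edgeR adjusted p = 1.00).

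Over the classes, the members whose swap and control libraries did not overlap were read against the share of all tested genes that did so. In INP-like cells both swap libraries lay above both controls for 3 of 5 members and below for 0, against 12.4% above and 11.2% below over all 9465 genes. In iOSN-like cells they lay above for 2 of 7 and below for 3 of 7, against 11.3% and 8.93%. Those above were Hes5 and Hes6, with Hes6 at 89.6 and 103 CPM in control and 105 and 123 CPM in swap iOSN-like cells. Those below were Jag1, Dll3 and Hes1, all at low levels, with Hes1 at 1.52 and 6.38 CPM in control and 1.29 and 0.596 CPM in swap libraries. In HBC-like cells they lay above for 0 of 8 and below for 2 of 8, against 10.8% each way. In GBC-like cells the counts were 0 above and 2 below of 9, against 7.98% and 14.9%. In mOSN-like cells they were 0 above and 1 below of 7, against 10.4% and 7.82%, and in Sus-like cells 0 above and 1 below of 7, against 6.95% and 9.96%.

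The makeup of the INP-like gate differed between these libraries. Control 1 held 120 cells with Neurog1 and no Neurod1 among its 339 INP-like cells, where the other libraries held 7 to 20 such cells, and Notch1 was at 11.7 CPM and Hey1 at 2.13 CPM in them. Among cells with both Neurog1 and Neurod1, Notch1 was at 120 and 77.5 CPM in control 1 and 2 against 243 and 214 CPM in swap 1 and 2, and Hey1 at 34.2 and 20.7 CPM against 92.1 and 91.0 CPM. The fit on this narrower gate, chosen after the values were seen, gave log2 fold changes of 1.20 for Notch1 and 1.70 for Hey1 (edgeR adjusted p = 0.248 and 0.0811). Among proliferating INP-like cells, Notch1 was at 191 and 112 CPM in control and 282 and 276 CPM in swap libraries. These cells held 331 and 50 Hes5 UMIs in control 1 and 2 and 138 and 257 in swap 1 and 2. Scaled to all UMIs of these cells, Hes5 was higher in control 1 than in swap 1, so its groups overlapped. Which calls are made turned on single libraries: both Hey1 and Hes5 were called without swap 1, Hey1 without control 2 and Hes5 without control 1. Without control 1, Hes5 was at 2.42 on the log2 scale. Each of these fits also called a larger share of all genes tested in INP-like cells than the 0.0211% of the fit as set. In each of these a lone library stands for its group and is assumed to vary like the other.

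In the remaining classes the unadjusted p was above 0.05 for every member tested. The largest difference was that of Hes1 in iOSN-like cells, at -1.93 ± 0.83 (log2 fold change ± SE, edgeR adjusted p = 1.00), on 58 UMIs over the 4 libraries. Jag1 and Dll3 in iOSN-like cells were at -0.85 ± 0.42 and -0.88 ± 0.48, and Hes5 in GBC-like cells was at -1.003 ± 0.57. In HBC-like cells Hey1 was at 139 and 171 CPM in control and 115 and 111 CPM in swap libraries (log2 fold change -0.46 ± 0.29), and Notch2 at 34.8 and 44.1 CPM against 25.2 and 33.5 CPM (-0.44 ± 0.32). In Sus-like cells Hes1 was at 406 and 288 CPM in control and 246 and 276 CPM in swap libraries (-0.39 ± 0.32). Jag1 in Sus-like cells was at 73.5 and 89.2 CPM in control and 40.7 and 75.2 CPM in swap libraries, which overlap. Hes6 was at 614 and 520 CPM in control and 829 and 529 CPM in swap INP-like cells (0.25 ± 0.26). None of the other pathway genes was called in any class, with 40 to 47 of the 55 tested. In simulated data on the INP-like libraries, 50 genes each were changed 2-, 4-, 8- or 16-fold. Of these, 6 of 50 changed 2-fold and 43 of 50 changed 4-fold were called, as were 15 of 9265 unchanged genes. Such planted changes loosen the adjusted p cutoff, while the INP-like data themselves had 2 calls among 9465 genes. How often a difference of the size seen for Notch1 would be called with 2 libraries a group was therefore not determined.

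The likeness of the genes' patterns was described by Pearson's r of log2(CPM + 1) over the 36 sums of 6 libraries and 6 classes, which share libraries and depth and carry no test. Hes1, Hey1 and Notch2 formed one group, with r of 0.91 to 0.95 among them, and Notch3 lay at 0.74 to 0.85 from them. Hes5 and Hes6 had r = 0.82, and Dll3 lay at 0.62 and 0.61 from them. Jag1 had r = -0.73 with Hes5. Notch1 was closest to Hey1, at 0.80, and had r = 0.31 with Hes5. Over the 13638 genes, those most like Notch2 were Cnn2, Gstm2 and Cbr2 (r = 0.97 to 0.98), like Notch3 Cyp2a5, Agr2 and Nadk2 (0.95), like Hes1 Gja1, Aqp3 and Ces1d (0.98) and like Hey1 Foxn3, Gpc4 and Pqlc3 (0.96 to 0.97). Cbr2 and Cyp2a5 are among the markers of the Sus-like gate. Those most like Hes5 were Ada, Mfng and Prmt8 (0.90 to 0.95), like Hes6 Hmgb3, Cbx3 and Hdgf (0.96 to 0.97), like Dll3 Pfdn6, Bex4 and Cep131 (0.89 to 0.90), like Dll1 Zfp36l2, Ptpru and Sema5a (0.92 to 0.93), like Jag1 Acad11, Adamdec1 and Ece1 (0.92 to 0.93), and like Notch1 3110039M20Rik and Sash1 (0.95). Mfng belongs to the pathway list, and Cbx3 encodes HP1γ.

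**Figure D5:**
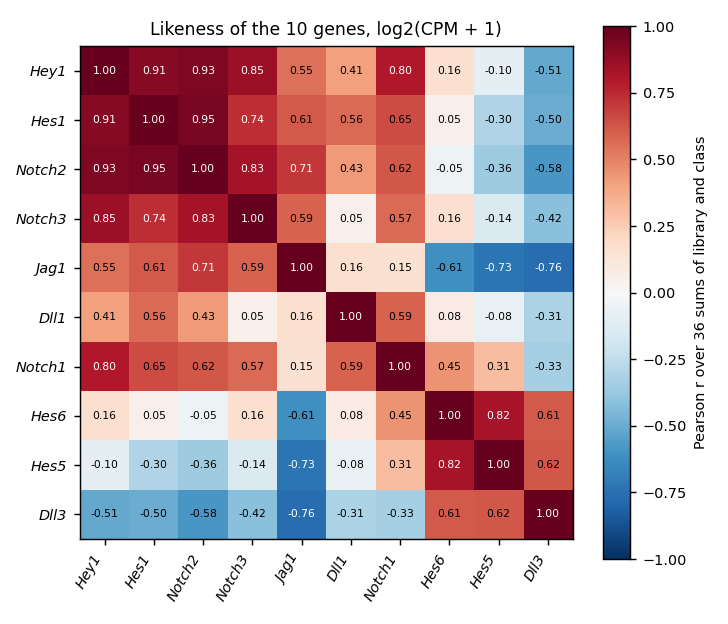
Pearson's r between the patterns of the 10 genes over 36 sums of library and class, log2(CPM + 1). Hey1, Hes1, Notch2 and Notch3 form a block with r of 0.74 to 0.95, and Hes6, Hes5 and Dll3 form another with r of 0.61 to 0.82.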

How the data were processed

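Cells of dissociated MOE were profiled with 10X v3 chemistry. The deposited values are raw UMI counts per gene and cell, which the authors made with Cell Ranger, introns included (build mm10, header version 3.1.0 in the swap and control files). The members and lists were chosen with earlier results of these data known. Barcodes under 1000 UMIs or under 500 genes were dropped, as were doublets at a rate of 0.8% per 1000 cells. A cell went to the marker list with the highest mean z of log-normalised values, if above 0.5 with at least 2 markers found. The GBC-like gate also needed UMIs of certain markers of its list, a condition set after the first gates were seen. Clusters (scanpy 1.11.5, igraph 0.11.9) served as a check.

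Counts were summed per library and class and tested with edgeR 4.0.16 (quasi-likelihood, TMM, R 4.3.3), with DESeq2 1.42.0 as an alternative. A call needed an adjusted p under 0.05 and a log2 fold change over 0.58 in size. Replicates are described as biological, and 2 libraries a group limit the tests. Total UMIs per library ran from 32005196 to 63277934. Intervals, at 95%, and limits, at 3 counts, cover counting error only. From the rest of the pathway list, the 5 called genes with the smallest p at each step were named, and for each member the 3 genes most like it. Scripts were tested on simulated data. Part of the genotype labels, 1 gene named by the rule and part of the GBC-like markers are not reported here.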

Additional observations from a re-analysis of the deposited data

Results flagged for a closer look

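In 3 pairs of classes every swap library moved one way against both controls in one class and the opposite way in the other. Only pairs with at least 50 UMIs of the gene over the 4 libraries were looked at, a limit set after the data were seen. The swap minus control difference of Hes5 was higher in INP-like than in GBC-like cells by 2.33 ± 0.68 on the log2 scale (SE, edgeR interaction over 14944 genes, adjusted p = 1.00), and higher in iOSN-like than in GBC-like cells by 1.60 ± 0.76 (edgeR adjusted p = 1.00). That of Hey1 was higher in INP-like than in HBC-like cells by 1.87 ± 0.52 (unadjusted p = 0.00312, edgeR adjusted p = 0.902). None of the 3 passed the correction. The pairs were picked for their opposite directions in the same 4 libraries, so the size of these differences and their p-values carry no independent support. No group has 4 or more libraries, so single libraries were not tested as outliers.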

How the results depend on the processing

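The 0 calls on the 10 genes between swap and control became 2 without the low-count filter (Hey1 and Hes5 in INP-like cells). In that INP-like fit, 136 of 16492 genes tested were called, or 0.825%. Calls on the 10 genes also changed when 1 library was left out, where a lone library stands for its group. They stayed at 0 with the replicate block. The replicate numbers are not stated to mark a batch and give only 2 pairs. Over genes, the replicate 1 minus replicate 2 difference in control correlated with that in swap at 0.268 to 0.561 over the classes. Over all genes and classes the 12 calls became 190 with the replicate block, 320 with DESeq2, 425 without the filter, 43 with cluster names, 87 with a stricter gate, 20 with the narrower gate, 7 with doublets kept and 638 to 937 with 1 library left out. The cause was not tested. Direction was followed for chosen differences in INP-like, HBC-like and Sus-like cells only, not for all tests. Leaving out 1 library turned the direction of 4 of these, all uncalled. Hes6 in INP-like cells ranged from -0.11 (without swap 1) to 0.53. In Sus-like cells Notch2 ranged from -0.62 to 0.025 (without swap 1), Hes1 from -0.70 to 0.0034 (without control 1) and Hey1 from -0.36 to 0.26 (0.06 without swap 2 and 0.26 without control 1). The difference of Hes6 with Dll3 in INP-like cells was 12.4 points without thinning, past the threshold. Of the 37 called steps, 31 were kept under all 15 alternatives. The others were Notch3 and Dll3 from GBC-like to INP-like cells (lost in 8 and 3), Notch1 there (lost in 1, with the 2 control libraries alone), Notch2 and Hes1 from INP-like to iOSN-like cells (lost in 8 and 6), and Dll3 in Sus-like cells (lost in 2).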

Other observations

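Outside the 6 classes, the gate of olfactory ensheathing glia (602 cells) held all 3 receptors unevenly, with Notch1 at 146 ± 40.7 CPM (SD, n = 6), Notch2 at 99.0 ± 46.2 CPM and Notch3 at 6.95 ± 3.05 CPM. Hes5 in these glia ranged from 91.4 to 720.1 CPM over the libraries, and Hey1 from 12.7 to 57.8 CPM. In the pericyte gate, with 5 to 15 cells per library, Notch3 was at 205 ± 78.9 CPM, Hey1 at 159.9 ± 91.2 CPM and Hes5 had 0 UMIs in 61 cells.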
